A study of Mus musculus with 24 samples.

Results

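The translation initiation factors were taken as every gene on the mouse mRNA array whose name began with Eif followed by a digit from 1 to 6, leaving out the 4 probes of the sex-linked pair Eif2s3x and Eif2s3y. This gave 82 probes for 56 genes, out of 55681 non-control probes and 36163 gene names. Of these genes, 35 had 1 probe, 16 had 2 and 5 had 3. The name rule also took in 4 Argonaute genes, listed on the array as Eif2c1 to Eif2c4, which are not initiation factors but load small RNAs. Their 7 probes are counted among the 82 members and are also described apart. Hippocampal RNA came from male C57BL/6 mice killed on P9, postnatal day 9, with 1 animal per array and both of its hippocampi in 1 tube. The untreated controls (Con, n = 5) were housed normally with little handling, while the MS2 (n = 5) and MS5 (n = 5) pups received morphine at 2 or 5 mg/kg from P5 on. Both morphine groups were also isolated from the dam and exposed to brief apnea, so morphine and stress cannot be told apart in a comparison with Con, and only MS5 against MS2 compared doses under a shared stress protocol. The values were the authors' background-adjusted, quantile-normalized log2 intensities, and each comparison came from 1 limma fit over the 15 arrays and all 55681 probes.

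Initiation is the step at which a ribosome is brought to the start codon of an mRNA, and it is where cells most often set the rate of protein synthesis. The eIF2 complex carries the initiator tRNA to the small ribosomal subunit, and eIF2B recharges eIF2 with GTP after each round. Stress-sensed kinases phosphorylate eIF2, which blocks eIF2B, slows general translation and favours mRNAs such as that of Atf4. The cap-binding eIF4F complex, made of eIF4E, eIF4G and the helicase eIF4A, recruits the mRNA, and the 4E-binding proteins hold eIF4E back until mTORC1 phosphorylates them. In hippocampal neurons both of these controls are known for their part in synaptic plasticity and memory. They act largely through phosphorylation, which mRNA arrays do not measure.

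The probe sequences below are shown for both probes of Eif2s1, which lie on the same mRNA and gave different readings, and for members described below whose groups did not overlap in a comparison (Eif5, Eif2b5) or whose unadjusted p in 1 comparison stayed under 0.05 when any single array was left out (Eif2d, Eif3a, Eif2c3). Each line holds the first 30 of the 60 bases of a probe, 5′ to 3′, and the positions in the text are those of the whole probe on the mm9 build. The Eif2s1 probes lie at chr12:79986224-79986283 and chr12:79987922-79987981, both on the plus strand, and start at bases 1378 and 3076 of the same transcript.
Eif2s1, near probe: ccagggactccaaacacaaacaatcccaat
Eif2s1, far probe: taattccagtacttgggaggctagcctagt
Eif5: cgttgctctattgaggtgtcataaagtttc
Eif2b5: aacattagcctaaaggaagtgatgcaggtc
Eif2d: aaagaaagggaaactctgtccaattgatat
Eif3a: taactacatgtaggcagtttatagcttctg
Eif2c3: gagatacacttttgggtatggccacacagt
The Eif5 probe lies at chr12:112784725-112784784, that of Eif2b5 at chr16:20507091-20507150 and that of Eif2d at chr1:133064757-133064816, all on the plus strand. The Eif3a probe lies at chr19:60837465-60837524 and that of Eif2c3 at chr4:126032332-126032391, both on the minus strand.

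Promoters of the members were read from RefSeq (GRCm38.p6), where 44 of the 56 genes had an entry, and 3 motifs were counted separately in the 250 bases before the gene start. The palindrome CACGTG, a form of the E-box, stood in the promoters of 9 of these 44 genes (20.5%) against 6.86% of all 27025 genes with an entry. The 9 were Eif1b, Eif3f, Eif3k, Eif4a1, Eif4e, Eif4g1, Eif4h, Eif5a and Eif5a2, which include a gene for each subunit of eIF4F. The motif CCGGAAG, searched on both strands, stood in 13 of 44 (29.5%) against 7.83% of all genes, and TGATGNAA, a form of the Atf4 response element searched on both strands, in 0 of 44 against 3.91%. A match is a string of letters and not a measured binding site. A gene counted if any of its listed promoters matched. The comparison took all genes with an entry, whether or not expressed here, and was not matched for base composition, so these shares do not show a trait particular to initiation factors. The 4 stretches of the eIF4F genes that hold the E-box are shown with its letters in capitals, at chr3:138527028-138527057 and chr3:138527192-138527221 (Eif4e, plus strand), chr16:20672661-20672690 (Eif4g1, plus strand) and chr11:69672595-69672624 (Eif4a1, minus strand).
Eif4e, distal: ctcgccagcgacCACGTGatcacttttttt
Eif4e, proximal: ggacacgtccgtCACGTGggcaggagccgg
Eif4g1: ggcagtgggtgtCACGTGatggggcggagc
Eif4a1: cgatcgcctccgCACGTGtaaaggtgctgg
Among the 9 E-box genes, with the brightest probe of each, MS5 minus Con differences (log2) ran from -0.089 to 0.044, 8 were below 0, and 0 had an unadjusted p under 0.05 in MS5 or in MS2 against Con. With the brightest probe of each gene, 43 of the 56 member genes were below 0, against 49.8% of all probes.

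The arrays MS2 replicates 4 and 5 and MS5 replicate 9 need naming before the results. MS5 replicate 9 carried Xist at 10.40 (log2) against at most 6.04 on the other 14 arrays and Ddx3y at 6.24 against 11.01 to 11.45, which goes against its label as male. MS2 replicate 4 stood apart in tissue markers, compared by the log2 of the summed intensity of their probes, in which the brightest probes weigh most. For 16 probes of hippocampal neuron markers it was 14.97 there against 16.72 to 17.10 elsewhere. For 20 probes of hypothalamus and thalamus markers it was 16.77 against 14.51 to 15.74. MS2 replicate 5 was dim, with a median spot signal of 58.2 against 121 to 154. Choroid plexus markers were lower at the high dose, above all in MS5 replicates 9 and 14, where their median lay -1.997 and -2.67 from the Con mean. All 22 of their probes were lower in MS5 than in Con, 19 of them at an unadjusted p under 0.05. The log2 of their summed intensity was 14.39 to 18.40 in MS5, 18.20 to 18.57 in MS2 and 18.09 to 18.71 in Con. No listed marker gene was below background on all arrays. The part of these differences in any result on the initiation factors was not tested, and in whole tissue fewer cells of a type cannot be told apart from less RNA per cell.

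Initiation factor mRNAs were readily measured: 81 of the 82 probes were well above background on all 15 arrays, and the exception was 1 of the 2 probes of the oocyte form of eIF4E, Eif4e1b, which was above it on 0. The median SD within groups was 0.099 (log2) over the members. It was 0.11 over all probes and 0.13 over the 36281 probes well above background on all 15 arrays. Probes of matched intensity were not compared. 

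At the high dose with stress, no initiation factor passed the study's threshold of 1.5-fold with an unadjusted p under 0.05. The count was 0 of 82 members, against 0.228% of all probes. At an unadjusted p under 0.05 alone, 3 of the 82 (3.66%) had a difference between MS5 and Con, against 3.90% of all probes. All 3 were lower in MS5, namely Eif2d, Eif5 and Eif2b2, where 2.43% of all probes were lower and 1.47% higher. None of the 55681 probes had a Benjamini-Hochberg adjusted p under 0.05 in any comparison (0.00%), and the members' differences had adjusted p of 0.97 or more. The count of 3 depended on single arrays, since it was 6 without Con replicate 15, 1 without Con replicate 18, 1 without MS5 replicate 8 and 7 without MS5 replicate 13. Shares of all probes with these arrays left out were not counted.

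The intervals gave a range for each difference, probe by probe and on these normalized values only. In MS5 against Con, the 95% interval of the fold change lay within 1.5-fold in either direction for 82 of 82 members, against 95.3% of all probes. It lay within 1.2-fold for 71 of 82 (86.6%), against 70.4% of all probes and 58.8% of those well above background on all 15 arrays. For MS2 against Con the counts were 82 and 59, against 95.2% and 69.1% of all probes and, for the second, 57.1% of those above background. For MS5 against MS2 they were 82 and 65, against 96.1% and 70.2%, with 58.8% of those above background. The count within 1.5-fold in MS2 was 79 to 81 when single arrays were left out. With processed signal scaled to the 75th percentile, the counts within 1.2-fold were 44 in MS5 against Con, 47 in MS2 against Con and 48 in MS5 against MS2, and those within 1.5-fold were 79 or more. Shares of all probes were not counted with scaled signal or with single arrays left out.

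Most members lay slightly below Con in MS5. The median MS5 minus Con difference was -0.024 (log2) over the 82 probes, and 57 of them were below 0, against 49.8% of all probes, whose median was 0.00036. With the brightest probe of each gene, 43 of 56 were below 0. Without the Argonaute and eIF2 kinase genes, 52 of 71 probes (73.2%) were below 0, with a median of -0.024. The members' median had an SD of 0.027 between arrays of a group, which is the spread of single arrays and not the error of a group difference. The medians on the 5 MS5 arrays, set against the mean of Con, were -0.031, 0.019, -0.045, 0.012 and -0.049, and on the Con arrays they ran from -0.019 to 0.041, so the groups overlapped. In MS2 the median was -0.0082 with 44 of 82 below 0, against 51.0% of all probes, and in MS5 against MS2 it was -0.010 with 47 below 0, against 49.3%. The authors listed translation initiation factor activity among the gene sets they found downregulated in MS5. Their gene set test was not repeated here, and the genes of that set need not be the members used here.

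**Figure D1:**
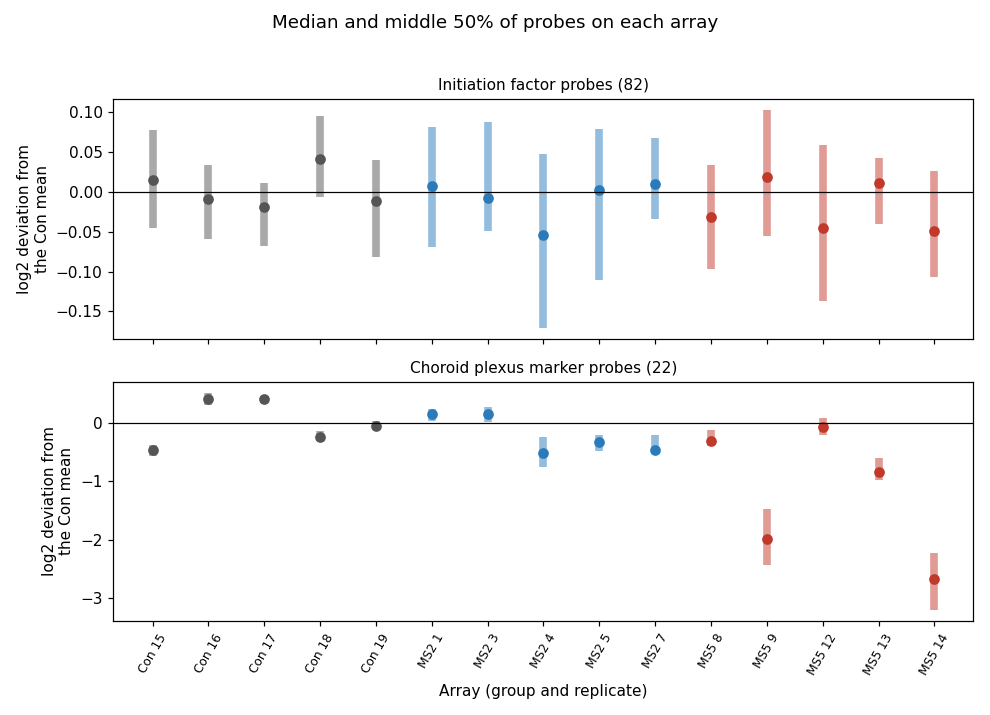
Median (point) and middle 50% (bar) of the log2 deviation from the Con mean on each array, for the 82 initiation factor probes (top) and the 22 choroid plexus marker probes (bottom, on a wider axis). Member medians stayed between -0.054 and 0.041 on all 15 arrays, with the widest bar on MS2 replicate 4, while the marker medians reached -2.67 in MS5.

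**Figure D2:**
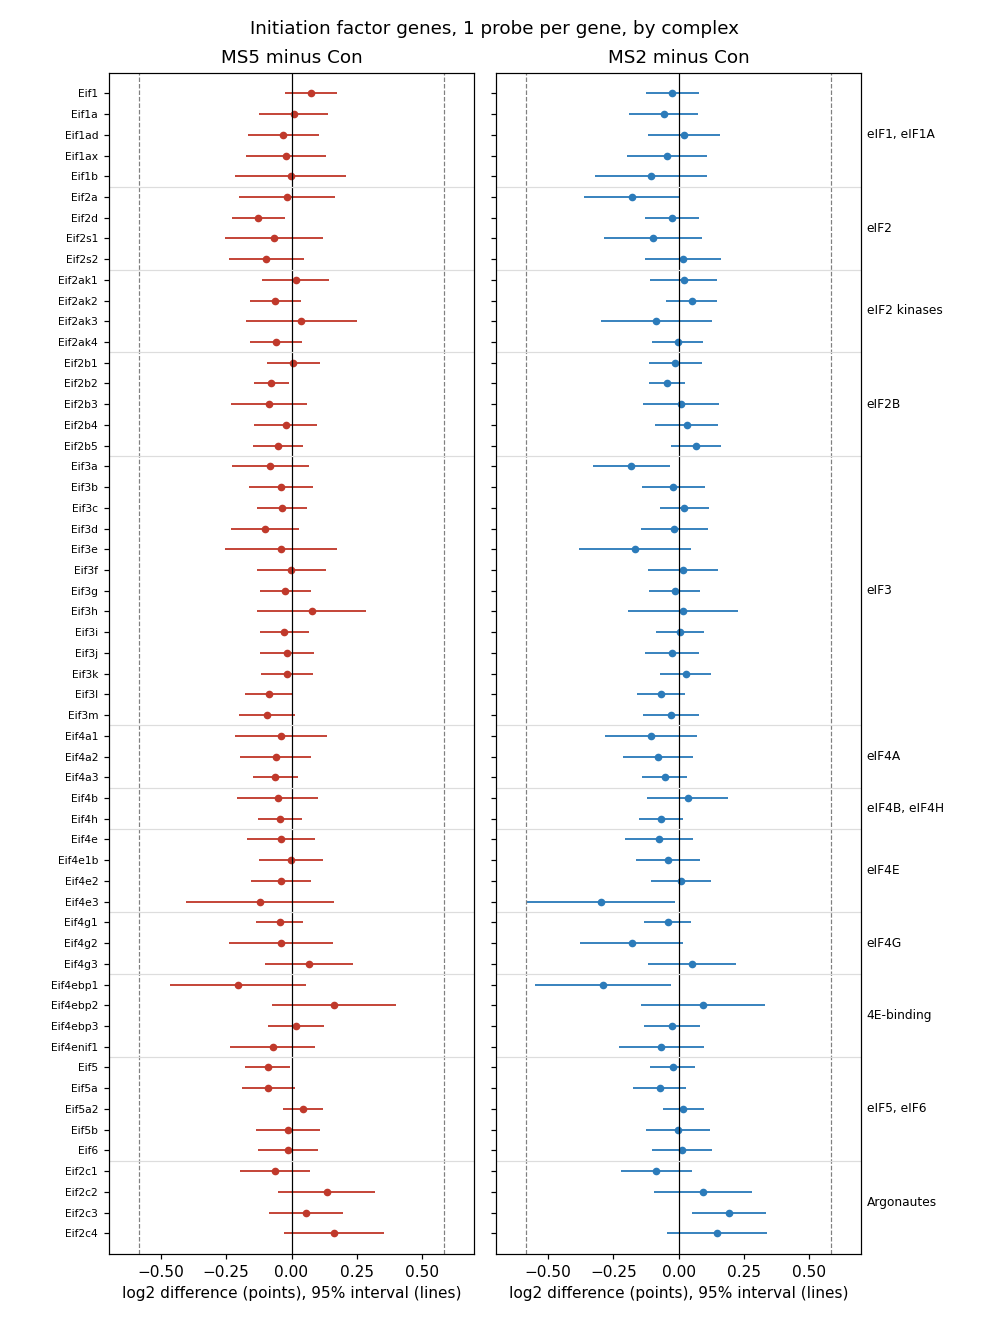
MS5 minus Con (left) and MS2 minus Con (right) log2 differences with 95% intervals from limma for 56 genes, grouped by complex and shown by the probe with the highest mean level, with 5 arrays per group. Dashed lines mark 1.5-fold. Every interval lay within the dashed lines.

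The start-codon factors eIF1 and eIF1A help the scanning ribosome reject wrong start sites. The genes grouped under these names, among which Eif1ad was placed by its name alone, gave 6 probes of 5 genes. They ranged from -0.031 to 0.075 (log2) in MS5 minus Con and from -0.11 to 0.019 in MS2 minus Con, and 0 of 6 had an unadjusted p under 0.05 in either.

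The eIF2 group, with 7 probes of 4 genes, held the member with the lowest unadjusted p in each of the 3 comparisons. Eif2d encodes a factor that can deliver initiator tRNA without eIF2. Its probe read 10.73, 10.59, 10.67, 10.69 and 10.67 (log2) in Con, in the order of replicates 15 to 19, and 10.53, 10.54, 10.49, 10.59 and 10.55 in MS5, in the order of replicates 8, 9, 12, 13 and 14. Only the top MS5 array exceeded the lowest Con array, and the MS2 arrays were spread over both, from 10.48 to 10.75. The MS5 minus Con difference was -0.13 (SE 0.048, unadjusted limma p = 0.0183, exact permutation p = 0.0159, n = 5 per group), or 0.916 times the Con level. Every single array left out kept a limma p under 0.05, while it was 0.0592 with a background offset of 0 and 0.0628 with scaled processed signal, beside the exact p above. The other Eif2d probe differed by -0.088 (limma p = 0.0844, exact permutation p = 0.0397).

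Eif2s1, the alpha subunit that the stress kinases phosphorylate, gave readings of opposite sign from its 2 probes in MS2. The far probe read 9.79, 9.67, 9.55, 9.76 and 9.61 in Con and 9.90, 9.94, 9.89, 10.04 and 9.83 in MS2, in the order of replicates 1, 3, 4, 5 and 7. All 5 MS2 arrays lay above all 5 Con arrays, and above the MS5 values of 9.82, 9.61, 9.78, 9.61 and 9.75. The MS2 minus Con difference was 0.24 (log2, SE 0.059), 1.18 times Con, with p = 0.000929 by limma, an adjusted p of 0.97 and an exact two-sided permutation p of 0.00794, the smallest that 5 against 5 arrays allow. MS5 minus MS2 was -0.20 (SE 0.059, p = 0.00362 by limma, exact permutation p = 0.00794), and MS5 minus Con 0.040 (exact permutation p = 0.548).
The near probe, which reads the same transcript, read 12.57, 12.50, 12.63, 12.78 and 12.69 in Con, 12.55, 12.50, 12.27, 12.66 and 12.69 in MS2 and 12.55, 12.71, 12.39, 12.74 and 12.44 in MS5. Its groups overlapped, and its MS2 minus Con difference was -0.099 (SE 0.088, exact permutation p = 0.325). The far probe's difference from Con kept an unadjusted p under 0.05 in 19 of 19 alternative settings, with values from 0.21 to 0.28. Whether the far probe also bound RNAs of other genes was not tested. Groups did not overlap at 1 of 82 members in MS2 against Con, against 0.702% of all probes, and it was this probe.

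**Figure D3:**
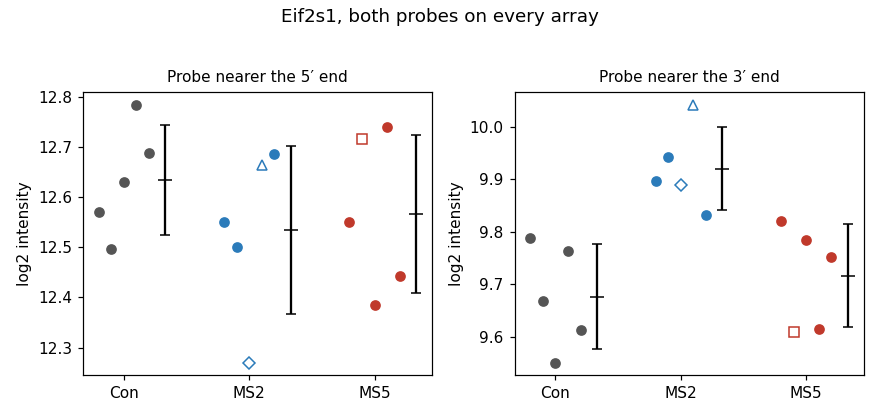
Log2 intensity of the Eif2s1 probe nearer the 5′ end (left) and of the one nearer the 3′ end (right) on each array, by group, with mean and SD (n = 5). Open symbols are MS2 replicate 4 (diamond), MS2 replicate 5 (triangle) and MS5 replicate 9 (square). In MS2 the right-hand probe lay above all Con arrays and the left-hand probe overlapped them.

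Eif2s2, the beta subunit of eIF2, was at 13.77 ± 0.087 (SD, n = 5) in Con, 13.79 ± 0.13 in MS2 and 13.68 ± 0.11 in MS5. The MS5 minus Con difference of -0.096 did not pass the test (exact permutation p = 0.175), and its other probe gave -0.095. Eif2a, an alternative initiator tRNA carrier, differed by -0.017 in MS5 and -0.18 in MS2 (exact permutation p = 0.722 and 0.103).

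The 4 eIF2 kinases, each tied to a different stress, had differences between -0.062 and 0.038 in MS5 and between -0.086 and 0.049 in MS2, and 0 of 4 passed the test against Con. Eif2ak1 (HRI), the haem-regulated kinase, differed by 0.016 and 0.019. Eif2ak3 (PERK), which senses unfolded protein in the endoplasmic reticulum, differed by 0.038 (exact p = 0.754) in MS5 and -0.086 (exact p = 0.389) in MS2. Eif2ak4 (GCN2), which senses uncharged tRNA, differed by -0.060 (exact p = 0.246) and -0.0034 (exact p = 0.944). Eif2ak2 (PKR), which senses double-stranded RNA, was the only kinase with a p under 0.05 in a comparison. It read 8.05, 8.13, 8.06, 8.16 and 8.01 in MS5 and 8.26, 8.12, 8.24, 8.15 and 8.19 in MS2, overlapping, with an MS5 minus MS2 difference of -0.11 (SE 0.046, limma p = 0.0280, exact permutation p = 0.0397). The limma p was under 0.05 in 11 of 19 alternatives, and the difference was -0.11 to -0.093 without MS2 replicate 1 or 4 or without MS5 replicate 8, 12 or 14, each of which took it over 0.05.

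Among the 5 subunits of eIF2B, the exchange factor mutated in vanishing white matter disease, 5 of 6 probes were below 0 in MS5 minus Con, and all 6 had 95% intervals within 1.2-fold. Of all probes, 49.8% were below 0 and 70.4% had such intervals, and of the 82 members 57 and 71. Eif2b2, the beta subunit, read 14.08, 14.06, 14.04, 14.13 and 14.05 in Con and 13.98, 14.00, 14.04, 14.00 and 13.96 in MS5. The 2 groups met at the top MS5 value and the lowest Con value, and MS2 ran across both, from 13.98 to 14.07. Its difference was -0.077 (SE 0.032, limma p = 0.0309, exact permutation p = 0.0159), 0.948 times Con, with SDs of only 0.033 in Con and 0.029 in MS5. It was -0.063, -0.072 and -0.069 without Con replicate 18, MS5 replicate 8 and MS5 replicate 14, each with a limma p over 0.05.

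Eif2b5, the catalytic epsilon subunit, read 11.54, 11.53, 11.55, 11.63 and 11.54 in MS2, where 4 of the 5 values lay within 0.03 of each other, and 11.51, 11.33, 11.49, 11.49 and 11.37 in MS5. All MS5 arrays were below all MS2 arrays, while the Con values of 11.39 to 11.56 overlapped both. MS5 minus MS2 was -0.12 (SE 0.045, p = 0.0206 by limma, exact permutation p = 0.00794), and -0.090, -0.098 and -0.10 without MS5 replicate 9, MS2 replicate 5 and MS5 replicate 14, each with a limma p over 0.05. MS5 minus Con was -0.052 (exact permutation p = 0.278).

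The eIF3 scaffold, which holds the small ribosomal subunit and the mRNA together, was the largest group, with 20 probes of 13 genes. In MS5 minus Con its differences ran from -0.10 to 0.096 and 0 of 20 had an unadjusted p under 0.05. The extremes were Eif3d at -0.10 (exact permutation p = 0.159), a subunit that can itself bind the mRNA cap, and 1 of 3 Eif3k probes at 0.096 (exact permutation p = 0.333), whose other probes gave -0.024 and -0.018.
In MS2 minus Con 1 of the 20 had a p under 0.05. It was Eif3a, the largest subunit, which read 12.61, 12.52, 12.61, 12.67 and 12.65 in Con and 12.45, 12.40, 12.33, 12.37 and 12.61 in MS2. The top MS2 array lay inside the Con range, and the other 4 lay below all Con arrays. The difference was -0.18 (SE 0.069, limma p = 0.0199, exact permutation p = 0.0159, 0.882 times Con), and in MS5 it was -0.081 (exact permutation p = 0.286). Each single array left out kept the MS2 limma p under 0.05, but without MS2 replicates 4 and 5 together the difference was -0.13 and with scaled processed signal -0.20, both with a limma p over 0.05.

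The cap-binding factors were close to Con at the high dose. Eif4e, the cap-binding protein, was at 12.61 ± 0.092 in Con, 12.54 ± 0.11 in MS2 and 12.57 ± 0.086 in MS5, with differences of -0.040 (95% interval -0.17 to 0.091) in MS5 and -0.076 (-0.21 to 0.055) in MS2. Eif4g1, the scaffold that joins the cap complex to eIF3, was at 14.38 ± 0.035, 14.34 ± 0.074 and 14.34 ± 0.057, and differed by -0.045 (-0.13 to 0.044) in MS5 and -0.042 (-0.13 to 0.047) in MS2. The 4 probes of Eif4a1, Eif4a2 and Eif4a3, of which Eif4a3 was placed here by its name alone, were all below 0 in both comparisons with Con. Of all probes, 49.8% were below 0 in MS5 and 51.0% in MS2, and of the 82 members 57 and 44. The Eif4a probes covered a narrow range. They lay between -0.061 and -0.0041 in MS5 and between -0.15 and -0.054 in MS2, and 0 passed the test. The 4 probes of Eif4b and Eif4h, cofactors of eIF4A, lay between -0.079 and -0.044 in MS5, and 0 passed the test. The probes of Eif4e2, a cap-binding repressor, and of Eif4e1b lay between -0.040 and 0.039 in MS5, and Eif4g2, which works without eIF4E, differed by -0.041 in MS5 and -0.18 in MS2.

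Eif4g3, a second eIF4G scaffold, had the highest MS2 minus Con difference of the members at 1 of its 2 probes. That probe read 8.38, 7.90, 8.11, 8.26 and 7.70 in Con and 8.49, 8.62, 8.29, 8.08 and 8.44 in MS2, with 3 of the 5 MS2 arrays above all Con arrays. The difference was 0.32 (SE 0.12, limma p = 0.0215, exact permutation p = 0.0714, 1.25 times Con), and the other, brighter probe gave 0.049 (exact permutation p = 0.643). It was 0.27, 0.22 and 0.26 without Con replicate 16, Con replicate 19 and MS2 replicate 3, each with a limma p over 0.05.

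Eif4e3, a cap-binding relative of eIF4E, had the lowest MS2 minus Con difference. It read 8.85, 8.79, 8.83, 9.03 and 8.76 in Con and 8.81, 8.71, 8.05, 8.38 and 8.81 in MS2. The 2 lowest MS2 arrays, replicates 4 and 5, stood below the other 3, of which 2 lay inside the Con range. The difference was -0.30 (SE 0.13, limma p = 0.0405, exact permutation p = 0.0714). It was -0.17 without MS2 replicate 4, -0.073 without both replicates and -0.12 with array weights, and it stood between -0.30 and -0.26 without MS2 replicate 5 or Con replicate 15, 17 or 18, each with a limma p over 0.05.

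The 4E-binding proteins gave the widest differences at the high dose, in opposite directions and within their spread. Eif4ebp1, the classical mTORC1-controlled brake on eIF4E, read 10.27, 10.27, 10.07, 10.47 and 10.08 in Con, 10.09, 10.21, 9.51, 9.89 and 10.00 in MS2 and 9.81, 10.23, 10.16, 9.99 and 9.94 in MS5. The lowest value, 9.51, was again MS2 replicate 4, the array with high thalamic and hypothalamic markers. MS5 minus Con was -0.21 (SE 0.12, exact permutation p = 0.103, 0.867 times Con). MS2 minus Con was -0.29 (SE 0.12, limma p = 0.0306, exact permutation p = 0.0556). The MS2 difference was -0.18 without MS2 replicate 4, -0.13 without MS2 replicates 4 and 5 and -0.15 with array weights, and between -0.28 and -0.23 without MS2 replicate 5 or Con replicate 15, 16 or 18, each with a limma p over 0.05.
Eif4ebp2, the main 4E-binding protein of neurons, read 11.98, 12.16, 12.02, 11.78 and 11.93 in Con, 12.38, 12.24, 12.05, 11.72 and 11.96 in MS2 and 12.37, 12.14, 11.98, 12.03 and 12.16 in MS5. Its groups overlapped, with differences of 0.16 (SE 0.11, exact permutation p = 0.119) in MS5 and 0.093 (exact permutation p = 0.484) in MS2. Eif4ebp3 differed by 0.017 in MS5, and Eif4enif1, which carries eIF4E into the nucleus, by -0.071. Whether the responses of Eif4ebp1 and Eif4ebp2 differed was not tested.

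**Figure D4:**
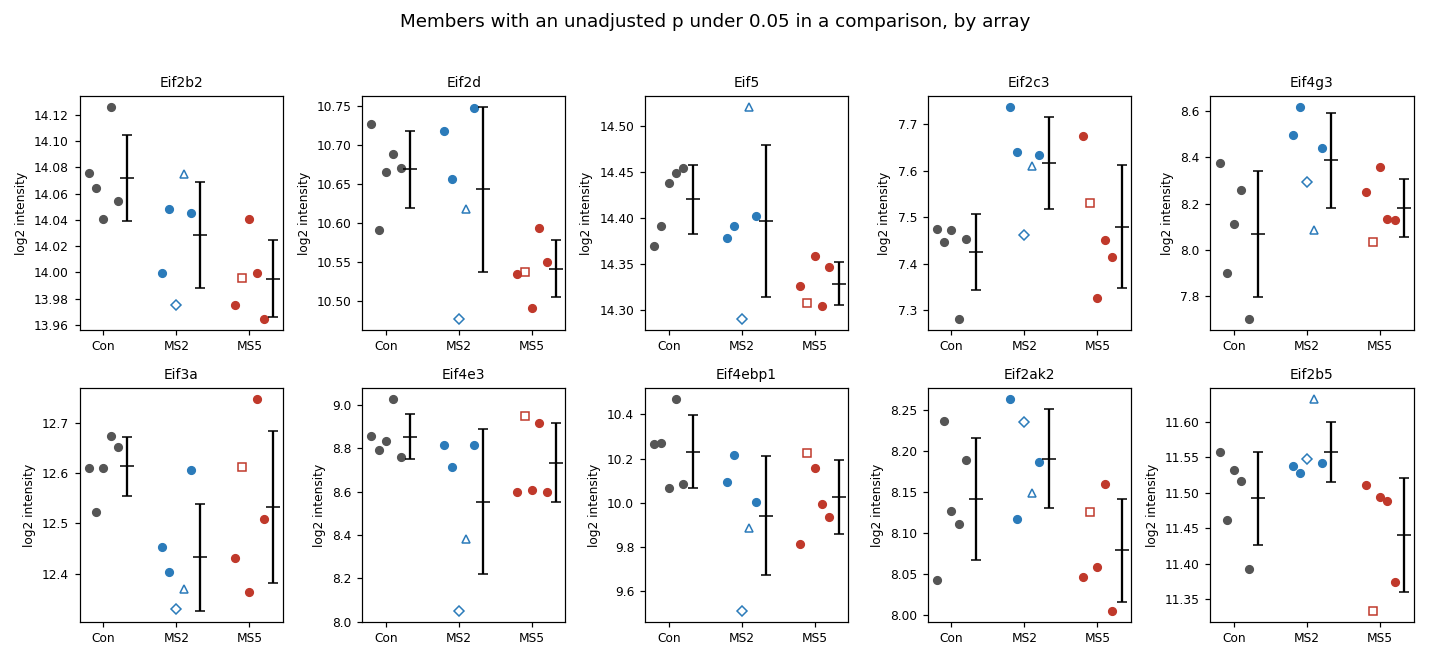
Log2 intensity by array and group, with mean and SD (n = 5), of the 10 genes other than Eif2s1 that had an unadjusted p under 0.05 in at least 1 of the 3 comparisons. Open symbols are MS2 replicate 4 (diamond), MS2 replicate 5 (triangle) and MS5 replicate 9 (square), and each panel has its own axis. The low MS2 values of Eif4e3 and Eif4ebp1 were replicates 4 and 5, and all MS5 arrays of Eif5 lay below all Con arrays.

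In the joining and late factors, Eif5 was the only member whose MS5 and Con arrays did not overlap, 1 of 82 against 0.828% of all probes. Eif5, which triggers GTP hydrolysis on eIF2 at the start codon, read 14.37, 14.39, 14.44, 14.45 and 14.45 in Con and 14.33, 14.31, 14.36, 14.30 and 14.35 in MS5. The gap between the groups was 0.01, and MS2 lay on both sides of it, from 14.29 to 14.52. The difference was -0.091 (SE 0.040, 0.939 times Con, p = 0.0383 by limma, exact permutation p = 0.00794), and the other Eif5 probe gave -0.056 (exact permutation p = 0.389). The first was -0.090 to -0.083 without Con replicate 17, 18 or 19 or MS5 replicate 8, 9 or 13, each with a limma p over 0.05, and 9 of 18 alternatives kept a p under 0.05.
Eif5a, a hypusine-bearing factor that helps stalled ribosomes along, was at 14.19 ± 0.059 in Con, 14.11 ± 0.065 in MS2 and 14.10 ± 0.082 in MS5, a difference of -0.089 (exact permutation p = 0.0873) in MS5. The remaining probes of the group, for Eif5a2, Eif5b and Eif6, lay between -0.021 and 0.044 in MS5.

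Between the doses, 0 of 82 members passed 1.5-fold with an unadjusted p under 0.05, against 0.129% of all probes, and 3 of 82 had an unadjusted p under 0.05, against 3.97%. The 3 were Eif2ak2, Eif2b5 and the far Eif2s1 probe, each lower in MS5 than in MS2 (all probes 2.25% lower and 1.72% higher), and the last 2 had no overlap between the groups (2 of 82 against 0.621% of all probes). The count was 7 without MS2 replicate 4, 5 without MS2 replicate 5, 5 without MS5 replicate 8, 5 without MS5 replicate 13, 1 without MS5 replicate 14 and 13 with array weights. Shares of all probes under these settings were not counted, so these counts cannot be set against them. In MS2 against Con, 0 of 82 passed 1.5-fold, against 0.0233%, and 6 of 82 (7.32%) had a p under 0.05, against 4.17%. Of these 6, Eif2c3, Eif2s1 and Eif4g3 were higher in MS2 (3 against 2.05% of all probes) and Eif3a, Eif4e3 and Eif4ebp1 lower (3 against 2.12%). Without the Argonaute and eIF2 kinase genes, 5 of 71 probes (7.04%) had an unadjusted p under 0.05 in MS2 against Con. MS5 and MS2 were compared with the same Con arrays, so these sets of differences are not independent.

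The arrays lay on 2 slides that each held all 3 groups. With the slide as a block, all the member differences above with an unadjusted p under 0.05 kept it, and each had the same sign within slide 1 and within slide 2, where no test was run. The far Eif2s1 probe was 0.19 and 0.33 higher in MS2 than in Con within slides 1 and 2, and Eif2d -0.13 and -0.10 from Con in MS5. The slides differed most for Eif4e3 (-0.12 and -0.56 in MS2 minus Con), Eif4ebp1 (-0.16 and -0.48), Eif2c3 (0.26 and 0.087) and Eif2b5 in MS5 minus MS2 (-0.036 and -0.19), and MS2 replicates 4 and 5 were both on slide 2.

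The Argonaute genes, which guide microRNAs to their targets, had a median SD within groups of 0.15, against 0.099 over all members. Eif2c3 (Ago3) read 7.48, 7.45, 7.47, 7.28 and 7.45 in Con and 7.74, 7.64, 7.46, 7.61 and 7.63 in MS2. The lowest MS2 array, replicate 4, lay inside the Con range, and the other 4 lay above all Con arrays. The difference was 0.19 (SE 0.066, limma p = 0.0115, exact permutation p = 0.0238) in MS2, with a limma p under 0.05 in 19 of 19 alternatives, and 0.054 (exact permutation p = 0.460) in MS5. The brighter probes of Eif2c4 (Ago4) and Eif2c2 (Ago2) differed by 0.16 and 0.13 (exact permutation p = 0.0635 and 0.214) in MS5, while their other probes gave -0.042 and 0.052. Both Eif2c1 (Ago1) probes were below 0 in MS5, at -0.074 and -0.064.

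Genes around the initiation factors were described from 4 further lists. Of 26 probes for 22 genes of the integrated stress response, which phosphorylated eIF2 sets off, 1 was higher and 1 lower in MS5 than in Con at an unadjusted p under 0.05, and the list's median difference was 0.0014. The higher one was Ddit3 (CHOP), a late target in that response, which read 9.90, 9.74, 9.86, 9.85 and 9.77 in Con and 10.08, 10.11, 9.97, 10.08 and 9.67 in MS5. The lowest MS5 array, replicate 14, lay below all Con arrays and the other 4 lay above them, and the difference was 0.16 (SE 0.071, limma p = 0.0393, exact permutation p = 0.0952). It was 0.24 without that array, and 0.13 to 0.17 with a limma p over 0.05 without Con replicate 16, 18 or 19 or MS5 replicate 8, 9, 12 or 13. The lower one was Atf3 at -0.18 (SE 0.066, limma p = 0.0174, exact permutation p = 0.0556), or -0.13 with a limma p over 0.05 without MS5 replicate 14.
The upstream regulator Atf4 differed by 0.00058 (95% interval -0.13 to 0.13) at its brighter probe and 0.11 (-0.11 to 0.34) at the other. Asns, an amino acid response target, differed by -0.072 (exact permutation p = 0.262).

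Of 25 probes of the mTORC1 and MNK list, 0 were higher and 1 was lower in MS5. It was Rptor, the scaffold of mTORC1, at -0.079 (SE 0.036, limma p = 0.0441, exact permutation p = 0.0238), or -0.079 to -0.070 with a limma p over 0.05 without Con replicate 17, 18 or 19 or MS5 replicate 8, 9, 12 or 14. Mtor itself differed by 0.038 (exact permutation p = 0.413). Of 26 probes of other initiation genes, 1 was lower, and it had the lowest p of the 4 lists. It was 1 of 3 probes of Ddx3x, an X-linked helicase that unwinds mRNA leaders, which read 13.18, 13.02, 13.11, 13.16 and 13.07 in Con and 12.88, 12.96, 12.99, 12.99 and 12.82 in MS5. The groups did not overlap, as at 2 of the 26 probes against 0.828% of all probes, and MS5 replicate 9, with its high Xist, lay among the other MS5 arrays. The difference was -0.18 (SE 0.046, limma p = 0.00161, exact permutation p = 0.00794), and the other probes gave -0.045 and -0.016. The other probe without overlap was that of Cyfip1, a partner of the translation repressor FMRP, at 12.69 to 12.79 in MS5 and 12.82 to 13.03 in Con, with a difference of -0.18 (limma p = 0.149, exact permutation p = 0.00794) and MS2 replicate 4 far below the other MS2 arrays at 12.14. Cyfip1 was named after its values were seen.
Of 16 elongation and termination probes 0 had a p under 0.05 in MS5, with Eef2, which moves the ribosome along, at -0.026 (exact permutation p = 0.421). In MS2 against Con, 1 probe each of Atf3 (-0.15), Eef1a1 (-0.13) and Gspt1 (-0.20) was lower and 1 each of Fmr1 (0.26) and Paip1 (0.17) higher at a limma p under 0.05, 5 of the 93 probes of the 4 lists against 4.17% of all probes. The MS5 against Con count was 4 of 93, against 3.90%. In MS5 against MS2 it was 5 of 93, against 3.97%, with Hspa5 (0.24) and Gspt1 (0.16) higher and Deptor (-0.20), Rptor (-0.095) and the same Ddx3x probe (-0.22) lower in MS5. The lists' shares were thus near those of all probes, and the genes of both comparisons with MS2 arrays were named after their values were seen.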

How the data were processed

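Hippocampal mRNA was measured on 15 one-colour Agilent arrays. The authors deposited spot intensity files from the scanner (Feature Extraction 10.7.1.1, mm9 probe positions) and log2 values in a matrix, background-adjusted with normexp and quantile normalized. Rebuilding from the intensity with an offset of 50 and the first spot of each probe gave these log2 values at 55821 of 55821 probes, to within 5e-09. That matrix was used as it stood, without 3671 control spots per array of 62976. The microRNA arrays were not used here.

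The 3 groups were fitted together in limma 3.58.1 (lmFit, eBayes, under R 4.3.3), and p-values were adjusted by Benjamini-Hochberg over 55681 probes. For single probes an exact permutation test of 5 against 5 arrays, two-sided, was added. Members and lists were chosen with earlier results of these data known. Genes named were members with an unadjusted p under 0.05, with groups that did not overlap or with probes that disagreed in sign, the 5 highest and 5 lowest in MS5 against Con, 10 genes of known role, pathway genes with a p under 0.05 in MS5 against Con, and Atf4, Ddit3, Asns, Mtor and Eef2. A gene's level is that of its brightest probe unless said otherwise.

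Alternatives were spots averaged, an offset of 0, processed signal scaled to the 75th percentile, a filter on dim probes, array weights, the slide as a block or taken alone, only the groups compared, other sets of member probes, and each array left out. The steps were tested on simulated data. The number of arrays limits the precision. Promoters came from RefSeq (GRCm38.p6). Besides the lists in the text, markers of ependyma, meninges, blood, oligodendrocytes, astrocytes and microglia were read, and their median MS5 minus Con differences were -0.38, -0.20, -0.39, 0.094, -0.0070 and 0.051 (log2).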

Additional observations from a re-analysis of the deposited data

Results flagged for a closer look

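Of 96 groups of 5 arrays, 6 held 1 array far from the other 4, and chance alone sets 1 in 20 groups apart by this measure. Eif2b5 on MS2 replicate 5 was at 11.63 (log2) against 11.53 to 11.55 on the other MS2 arrays. Eif2s2 on the same dim array was at 14.02 against 13.71 to 13.76. Eif2c3 on Con replicate 18 was at 7.28 against 7.45 to 7.48. Of the surrounding genes, Eef2 on Con replicate 17 was at 16.13 against 16.26 to 16.28, 1 Atf4 probe on MS2 replicate 7 was at 10.46 against 10.28 to 10.30, and the other Atf4 probe on MS5 replicate 9 was at 15.45 against 15.14 to 15.22.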

How the results depend on the processing

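No member passed 1.5-fold with an unadjusted p under 0.05 in any of the 3 comparisons under any alternative that gave a test. The number of members at an unadjusted p under 0.05 in MS5 against Con, 3 as reported, was 0 with an offset of 0, 0 with processed signal scaled to the 75th percentile, 1 with the filter on dim probes, 6 with only the 2 groups compared, and 5 without MS5 replicate 9 and MS2 replicate 5 together, a pair chosen after seeing the data. It ran from 1 to 7 when single arrays were left out. In MS5 against MS2, 3 as reported, it was 1 with an offset of 0, 1 with scaled processed signal, 13 with array weights, 5 with the slide as a block and 8 without MS2 replicates 4 and 5, also chosen after seeing the data, and it ran from 1 to 7 over single arrays. With scaled processed signal the intervals within 1.2-fold in MS5 against Con numbered 44, and members without overlap numbered 3 in MS2 against Con and 1 in MS5 against MS2. Shares of all probes under these alternatives were not counted, and the causes of the changed counts were not tested. Median differences moved by less than the SD between arrays. That SD, 0.027, is larger than each median difference itself, so this does not show that they held. In MS5 against Con they were -0.022 and -0.015 within slides 1 and 2, and -0.036 to -0.015 over single arrays left out. Over single arrays they ran from -0.019 to 0.0058 in MS2 against Con and from -0.024 to 0.0015 in MS5 against MS2, on both sides of 0. Of 649 values of named members under alternatives, 576 kept their side of the p threshold, or moved by less than 1 SD where there was no test. No value with a p under 0.05 changed sign. The 576 include values that changed sign with no p under 0.05. Eif2ak3 in MS5 against Con, for example, went from 0.038 to -0.037 without MS5 replicate 9. No paired analysis was possible because the replicate numbers of the mRNA arrays differ in every group.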
